A study of Mus musculus with 10 samples.

Results

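Expression of 6 genes grouped under the leukaemia inhibitory factor (LIF), gp130 and STAT3 pathway was followed across 5 culture conditions. They were taken by symbol from the deposited expression table: Lif, the cytokine itself, the receptor genes Il6st and Osmr, the kinase gene Jak1, the transcription factor gene Stat3 and the small GTPase gene Mras. The table has 20494 lines, and all 6 genes lie in its upper part, where symbols and values were found to match (see the processing notes). LIF binds its receptor together with gp130, the product of Il6st. The receptor activates the kinase JAK1, which phosphorylates STAT3, and STAT3 then enters the nucleus and sustains self-renewal of mouse embryonic stem cells. The same receptor also feeds Ras and PI3K signalling, and in fibroblasts and other tissues gp130 pairs with the oncostatin M receptor, encoded by Osmr.

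The line of embryonic stem cells came from mice with the strain label C57BL6X129S6F1, and each condition had 2 libraries, labelled replicate 3 and replicate 5. Every medium held 1000 IU mLIF, so recombinant cytokine was present in all 10 libraries, including the reference. SL was KO-DMEM with 15% FBS. The 4 other media were N2B27, which is serum-free, with 3 µM Chir99021, a GSK3 inhibitor. 2iL added the MEK inhibitor PD0325901 at 1 µM, A2iL the Src inhibitor CGP77675 at 1.5 µM, and LCDM the compounds written Dim and Mih at 2 µM each. 2iL-F was the 2iL medium, and its libraries are labelled as grown without feeder cells, while the other 4 conditions are labelled as grown with them. No label says that replicates were separate cultures, so the p-values reflect only how far these libraries differ, and that spread may be technical.

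Embryonic stem cell markers were present throughout: all 7 that could be read were at 1 TPM or more in all 10 libraries, and their summed level was 1790 to 2976 TPM. Markers of fibroblasts, the usual feeder cells, went against the feeder labels. The summed level of 37 fibroblast markers was 6234 and 6550 TPM in SL, 3865 and 3781 in A2iL, 1430 and 1391 in LCDM, and 5404 and 5178 in 2iL-F, the condition labelled feeder-free. In the libraries labelled 2iL it was 926 and 982 TPM, where 13 and 12 markers reached 1 TPM and 12 and 11 were listed at 0, among them Lox, Postn, Dcn, Acta2, Thbs2, Cav1, Fap and Bgn in both. The markers still present there included Sparc at 441, Fn1 at 403, Cyr61 at 32.4 and Vim at 18.8 mean TPM. A few markers at high levels weigh most in these sums. In SL, Tagln had 908 and Acta2 891 mean TPM, against 24.2 to 38.1 in A2iL, LCDM and 2iL-F. Of the 37 markers, 15 were higher and 20 lower in 2iL-F than in SL. Below, 2iL and 2iL-F stand for the libraries so labelled. Whether these 2 labels were exchanged was not tested, and the direction of every difference between 2iL-F and 2iL with respect to feeders rests on them. In bulk RNA, fewer cells of a type and less RNA per cell cannot be told apart.

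The promoters of the 3 genes whose levels spread most widely are shown first, as RefSeq gives them for GRCm38.p6 (250 bases before the start site to 50 after, all 6 genes matched). The differences below are of whole genes and were not split by start site, so expression alone does not say whether these promoters were used. The end of the window was found in 1 of 3 annotated transcripts of Lif, 3 of 6 of Osmr and 1 of 6 of Mras. Capitals mark matches, on either strand, to the STAT motif TTCNNNGAA, the AP-1 motif TGANTCA or the GC box GGGCGG, which do not overlap one another here. The Lif promoter lies at chr11:4257318-4257617 on the plus strand, the Osmr promoter at chr15:6874264-6874563 and the Mras promoter at chr9:99436663-99436962, both on the minus strand.
Lif: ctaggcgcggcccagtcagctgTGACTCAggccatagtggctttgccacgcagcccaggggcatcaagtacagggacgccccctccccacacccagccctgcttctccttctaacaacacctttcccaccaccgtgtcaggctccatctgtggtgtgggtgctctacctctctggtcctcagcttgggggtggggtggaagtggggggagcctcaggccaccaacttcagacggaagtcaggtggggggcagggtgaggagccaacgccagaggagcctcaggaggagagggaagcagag
Osmr: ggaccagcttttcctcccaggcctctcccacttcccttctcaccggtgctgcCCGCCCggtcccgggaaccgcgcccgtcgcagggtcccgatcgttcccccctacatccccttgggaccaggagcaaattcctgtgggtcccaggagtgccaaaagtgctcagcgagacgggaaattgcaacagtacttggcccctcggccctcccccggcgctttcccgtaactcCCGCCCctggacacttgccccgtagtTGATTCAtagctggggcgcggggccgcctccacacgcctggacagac
Mras: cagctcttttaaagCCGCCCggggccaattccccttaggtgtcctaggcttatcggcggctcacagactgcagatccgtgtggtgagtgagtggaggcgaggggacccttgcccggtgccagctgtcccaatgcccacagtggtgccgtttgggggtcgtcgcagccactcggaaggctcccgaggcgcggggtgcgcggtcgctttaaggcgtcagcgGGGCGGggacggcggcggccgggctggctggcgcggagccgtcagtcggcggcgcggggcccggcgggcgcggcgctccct
The Lif window holds 1 AP-1 match, 228 bases before the start site, and no GC box. The Osmr window holds 1 AP-1 match, at base 4 after the start, and 2 GC boxes, and the Mras window 2 GC boxes. None of the 6 windows holds the letters of the STAT motif. Among 32851 promoters of this length, 8.30% hold the STAT motif, 7.81% the AP-1 motif and 35.7% the GC box. A match is only a string of letters in this window.

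Levels are given as TPM, a unit that corrects for transcript length and for the library total but keeps no read depth, so the counting precision is unknown. Differences are of log2(TPM + 1) ± SE from limma, fitted over all 14578 lines that reached 1 TPM in at least 2 libraries, so genes with low TPM change by more than the fit gives. All 6 genes passed that filter. Differences are called changed at a Benjamini-Hochberg adjusted p below 0.05 over all lines tested. Every one of the 6 genes differed among the 5 conditions by the F test, at adjusted p from 7.12e-09 for Osmr to 0.00018 for Jak1. This is no mark of the pathway, since 90.1% of all lines passed the same test.

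**Figure D1:**
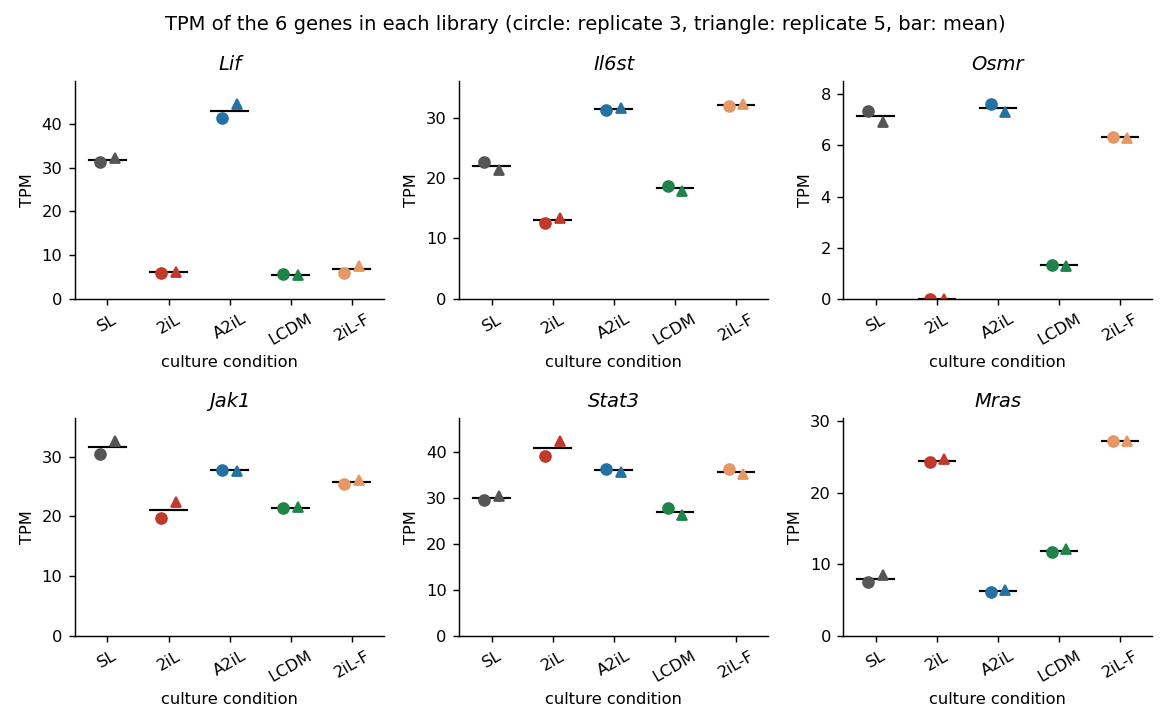
TPM (vertical axes, from 0) of the 6 genes in each library of the 5 culture conditions, with circles for replicate 3, triangles for replicate 5 and bars for the mean of 2. Lif was high in SL and A2iL and low in the other 3 conditions, Osmr was low in LCDM and at or near 0 in 2iL, and Mras was highest in 2iL and 2iL-F.

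Lif, the gene of the cytokine (chromosome 11, 4257557 to 4272514 of mm10), fell into a high and a low set of conditions. It had 31.3 and 32.1 TPM in SL and 41.5 and 44.5 in A2iL, against 5.90 and 6.21 in 2iL, 5.59 and 5.42 in LCDM, and 6.0 and 7.57 in 2iL-F. The lowest library of the high set thus stood above the highest of the low set by more than 20 TPM. The mean in SL was 5.23 times that in 2iL, 5.76 times that in LCDM and 4.67 times that in 2iL-F. As differences from SL these were -2.21 ± 0.09 in 2iL, -2.33 ± 0.09 in LCDM and -2.08 ± 0.09 in 2iL-F, and A2iL was higher than SL by 0.43 ± 0.09. Their adjusted p-values (limma) were 7.26e-08, 1.38e-07, 2.44e-07 and 0.00464.

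The low set joins the 2 conditions with PD0325901 and LCDM, whose listed medium has no MEK inhibitor. Within it the conditions lay close together. 2iL-F exceeded 2iL by 0.13 (95% interval -0.08 to 0.35, adjusted p = 0.239 in limma), and 2iL exceeded LCDM by 0.12 (-0.09 to 0.33, adjusted p = 0.296). The first difference rests on single libraries, being -0.01 (adjusted p = 0.915) without 2iL-F replicate 5 and 0.28 (adjusted p = 0.0179) without 2iL-F replicate 3. LCDM was lower than 2iL-F by a margin that passed (-0.25 ± 0.09, adjusted p = 0.0431), but leaving out any 1 of 7 libraries (both of SL, A2iL and LCDM, and 2iL-F replicate 5) ended that call, at adjusted p = 0.0589 to 0.289. Its size was -0.11 without 2iL-F replicate 5 and -0.40 without 2iL-F replicate 3. The fibroblast marker sum did not order the conditions as Lif did: 2iL-F had low Lif beside a sum above 5000 TPM, and A2iL had the highest Lif beside a sum below 4000. The part of fibroblast RNA in the Lif levels was not tested.

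Il6st, which encodes gp130, the signalling subunit shared by the receptors of the IL-6 cytokine family (chromosome 13, 112464070 to 112510086), varied over a narrower range. It had 31.8 and 32.2 TPM in 2iL-F, 31.3 and 31.5 in A2iL, 22.7 and 21.4 in SL, 18.8 and 17.9 in LCDM, and 12.6 and 13.4 in 2iL. No library of one of these 5 conditions overlapped those of another. The top 2 conditions did not differ by the test (0.03, 95% interval -0.10 to 0.15, adjusted p = 0.715 in limma), while each step further down the order did. From SL, Il6st rose by 0.49 ± 0.06 in A2iL and 0.52 ± 0.06 in 2iL-F, and fell by 0.25 ± 0.06 in LCDM and by 0.72 ± 0.06 in 2iL. The largest contrast was between the 2 sets of libraries with the same medium: 2iL-F had 2.46 times the Il6st of 2iL, a difference of 1.24 ± 0.06 (adjusted p = 3.35e-07).

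Osmr encodes the partner of gp130 in the oncostatin M receptor (chromosome 15, 6813577 to 6874969). It was the lowest of the 6 genes in 7 of 10 libraries, and showed the widest range on the log scale. In SL it had 7.34 and 6.93 TPM, with 7.61 and 7.29 in A2iL, 6.33 and 6.29 in 2iL-F, 1.32 and 1.30 in LCDM, and 0.00724 and 0 in 2iL. The first 3 conditions sat within about 1.5 TPM of each other, LCDM far below them, and the libraries labelled 2iL at or next to 0. SL had 5.46 times the level of LCDM (-1.82 ± 0.07, adjusted p = 1.41e-07 in limma). No ratio is given against 2iL because 1 of its libraries is listed at 0. The fitted difference of 2iL from SL was -3.02 ± 0.07 (adjusted p = 2.56e-09) and became -6.13 with a pseudocount of 0.1 in place of 1, so its size is set largely by that constant.

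Neither A2iL (0.05, 95% interval -0.11 to 0.22, adjusted p = 0.554 in limma) nor 2iL-F (-0.15, -0.32 to 0.01, adjusted p = 0.0933) differed from SL in Osmr by the test. A2iL was above 2iL-F by 0.21 ± 0.07 (adjusted p = 0.045), a call that ended when any 1 library outside 2iL was left out (adjusted p = 0.0587 to 0.19) and with a pseudocount of 0.1 (adjusted p = 0.134). The order of conditions by Osmr placed the same 2 conditions lowest as the fibroblast marker sum, LCDM and then 2iL. In the 2 libraries labelled 2iL, where Osmr was at or near 0, 12 and 11 of the 37 fibroblast markers, Lox, Dcn and Bgn among them, were listed at 0 and 13 and 12 were at 1 TPM or more, led by Sparc and Fn1. What part fibroblast RNA has in the levels of Osmr and Il6st was not tested.

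**Figure D2:**
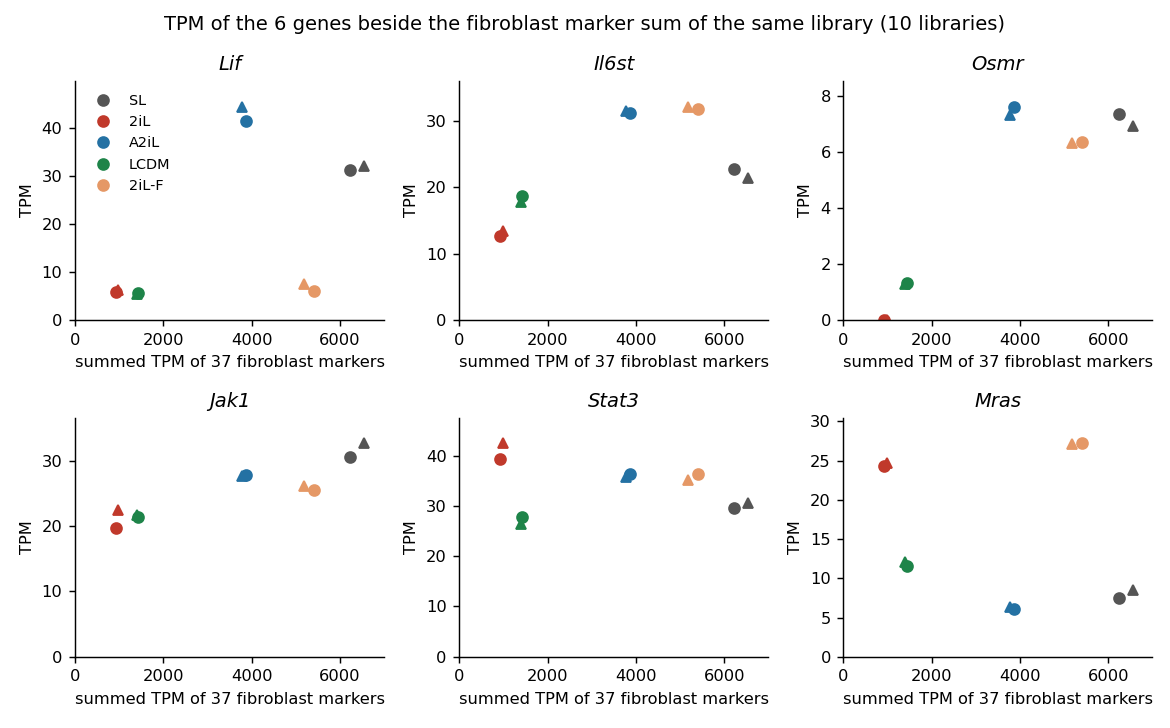
TPM of each of the 6 genes (vertical axes) against the summed TPM of 37 fibroblast markers in the same library (horizontal axes), 10 libraries coloured by condition, with circles for replicate 3 and triangles for replicate 5. Osmr was lowest in the 4 libraries of 2iL and LCDM, which have the smallest sums, whereas Lif and Mras differed widely between A2iL and 2iL-F.

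Jak1 encodes the main kinase bound to gp130 (chromosome 4, 101152367 to 101265282), and its changes were small. In SL it had 30.5 and 32.6 TPM, with 27.8 and 27.6 in A2iL, 25.4 and 26.1 in 2iL-F, 21.3 and 21.6 in LCDM, and 19.8 and 22.4 in 2iL. The SL libraries were the highest of the 10, and those of LCDM and 2iL overlapped at the bottom. Jak1 fell from SL in 2iL (-0.56 ± 0.07), LCDM (-0.53 ± 0.07) and 2iL-F (-0.28 ± 0.07), at adjusted p of 5.46e-05, 0.000119 and 0.00486 (limma). The lower level in A2iL passed narrowly (-0.18 ± 0.07, adjusted p = 0.0446). It no longer did with median-of-ratios scaling (-0.10, adjusted p = 0.13) or when any 1 library outside 2iL was left out (adjusted p = 0.0555 to 0.22). LCDM and 2iL could not be told apart (0.03, 95% interval -0.12 to 0.18, adjusted p = 0.735), and neither could A2iL and 2iL-F (0.10, -0.05 to 0.25, adjusted p = 0.243). In mm10 Jak1 overlaps 3 other annotated genes, Raver2, Gm24468 and Gm12785, and the sources used here do not say whether reads were assigned by strand.

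Stat3, the transcription factor that carries the LIF signal (chromosome 11, 100885098 to 100939540), was the least variable of the 6 genes together with Jak1. It had 39.2 and 42.4 TPM in 2iL, 36.4 and 35.7 in A2iL, 36.4 and 35.2 in 2iL-F, 29.6 and 30.5 in SL, and 27.7 and 26.3 in LCDM. All serum-free media but LCDM thus lay above SL, and LCDM below it, with libraries that did not overlap those of SL. Stat3 rose from SL by 0.43 ± 0.05 in 2iL (1.36 times), 0.26 ± 0.05 in A2iL and 0.25 ± 0.05 in 2iL-F, at adjusted p of 9.8e-05, 0.00443 and 0.004 (limma). In LCDM it was lower by a margin that passed (-0.15 ± 0.05, adjusted p = 0.042) but not once any 1 library outside 2iL was left out (adjusted p = 0.0535 to 0.213).

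LCDM was lowest in Stat3 also against the other serum-free media, by 0.58 ± 0.05 below 2iL, 0.40 ± 0.05 below A2iL and 0.39 ± 0.05 below 2iL-F. A2iL and 2iL-F had like levels (0.01, 95% interval -0.12 to 0.14, adjusted p = 0.897 in limma). The higher level of 2iL over A2iL (0.18 ± 0.05, adjusted p = 0.0195) was lost with quantile normalisation (adjusted p = 0.113) and without 2iL replicate 5, A2iL replicate 3 or A2iL replicate 5 (adjusted p = 0.0581 to 0.0912). That of 2iL over 2iL-F (0.19 ± 0.05, adjusted p = 0.0174) was lost without 2iL replicate 5 or 2iL-F replicate 5 (adjusted p = 0.0728 and 0.0948). Stat3 overlaps Stat5a on the opposite strand in mm10. Stat5a was far lower, at 1.65 to 3.48 mean TPM over the conditions. These are transcript levels, and phosphorylated STAT3, the active form, was not measured here.

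Mras encodes a Ras-like GTPase that acts in the cascade upstream of MEK (chromosome 9, 99385420 to 99437381). Mras was high in 2iL and 2iL-F, where Lif was low, and low in SL and A2iL, where Lif was high. LCDM broke this reversal, with low Lif beside an intermediate level of Mras. Mras had 24.3 and 24.7 TPM in 2iL and 27.2 and 27.2 in 2iL-F, against 11.6 and 12.1 in LCDM, 7.46 and 8.50 in SL, and 6.04 and 6.32 in A2iL. The 4 libraries with the MEK inhibitor were the highest, and LCDM stood between them and the rest without overlap. Mras was 3.07 times its SL level in 2iL (1.51 ± 0.07, adjusted p = 1.05e-07 in limma) and 3.41 times in 2iL-F (1.65 ± 0.07, adjusted p = 1.44e-07). It also rose in LCDM by 0.52 ± 0.07 (adjusted p = 0.00016) and fell in A2iL by 0.32 ± 0.07 (adjusted p = 0.00379).

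Between the libraries labelled 2iL-F and 2iL, Mras differed by 0.15 (95% interval -0.01 to 0.30, adjusted p = 0.0905 in limma). The difference passed with median-of-ratios scaling (0.17, adjusted p = 0.0468) and with quantile normalisation (0.20, adjusted p = 0.0222). The next step down, from 2iL to LCDM, was 0.99 ± 0.07 and passed (adjusted p = 4.21e-06), as did all later steps.

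**Figure D3:**
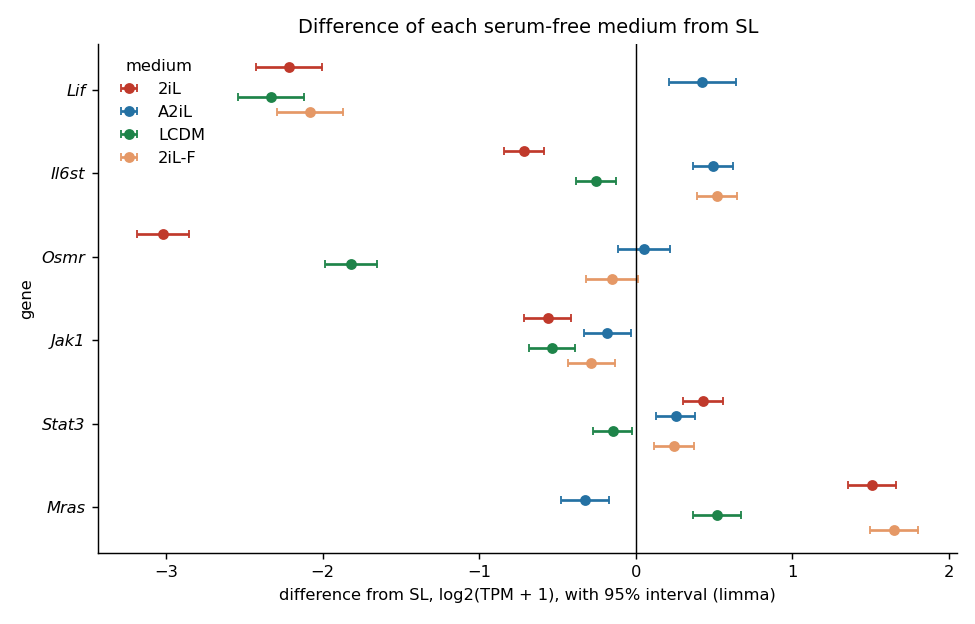
Difference of each serum-free medium from SL in log2(TPM + 1) (horizontal axis) for the 6 genes, with 95% intervals from limma over 10 libraries. Lif lay below -2 in 2iL, LCDM and 2iL-F and above 0 in A2iL, while Mras lay above 1.5 in 2iL and 2iL-F and below 0 in A2iL.

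Counted over the 6 genes, the differences from SL share the SL libraries and are given side by side. In 2iL, 2 rose (Stat3, Mras) and 4 fell, against 77.7% of all lines called (36.7% higher and 40.9% lower). In LCDM, 1 rose (Mras) and 5 fell, against 65.9% (32.2% higher and 33.7% lower). In A2iL, 3 rose (Lif, Il6st, Stat3) and 2 fell (Jak1, Mras), against 53.8% (21.9% higher and 31.9% lower), which is 3196 and 4648 lines, or 3994 and 3789 with median-of-ratios scaling. In 2iL-F, 3 rose (Il6st, Stat3, Mras) and 2 fell (Lif, Jak1), against 65.4% (28.1% higher and 37.3% lower). With 6 genes and such backgrounds the counts are no result about the pathway. Their median difference was -0.64 in 2iL, -0.39 in LCDM, 0.05 in 2iL-F and 0.16 in A2iL, beside medians over all lines between -0.08 and 0.00.

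The 2 conditions with the same medium, 2iL-F and 2iL, differed in Il6st, Osmr and Jak1, which were higher in 2iL-F, and in Stat3, which was lower, against 61.7% of all lines (29.2% higher and 32.5% lower). Jak1 differed by 0.28 ± 0.07 (adjusted p = 0.00557 in limma). The fibroblast marker sum was 5291 ± 160 TPM in 2iL-F and 954 ± 39.6 in 2iL (SD, n = 2). Sparc at 441 and Fn1 at 403 mean TPM made up most of the sum in 2iL. All 37 markers were higher in 2iL-F than in 2iL, with a median difference of 4.43. Lif and Mras, for which these conditions did not differ by the test, were the 2 genes with the largest differences between A2iL and 2iL-F. That comparison sets media with a Src inhibitor and a MEK inhibitor beside fibroblast sums of 3823 ± 59.5 and 5291 ± 160 TPM. Of the 37 markers 15 were higher and 17 lower in A2iL than in 2iL-F, with a median difference of -0.03. Col1a1 (394 against 1016 TPM) and Sparc (404 against 967) were among the lower, and Dcn, Thbs2 and Bgn among the higher. There 3 of the 6 genes were called, against 45.3% of lines (22.2% higher and 23.0% lower in A2iL): Lif was 6.34 times higher in A2iL (2.50 ± 0.09, adjusted p = 2.93e-07), Mras 4.40 times higher in 2iL-F (1.97 ± 0.07, adjusted p = 2.16e-07), and Osmr slightly higher in A2iL, as given above.

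Among the remaining pairs, A2iL against 2iL called 6 of 6 (background 69.5%, with 33.2% higher and 36.2% lower), with Lif at 7.10 times and Il6st at 2.41 times the 2iL level in A2iL, and Mras at 3.96 times the A2iL level in 2iL. LCDM against A2iL also called 6 (54.0%, with 31.1% higher and 22.9% lower, or 4534 and 3339 lines, and 3737 and 4110 with median-of-ratios scaling), where only Mras was higher in LCDM, at 1.92 times, and Lif was 7.81 times higher in A2iL. LCDM against 2iL-F called 6, all lower in LCDM (59.5%, with 32.3% higher and 27.2% lower, or 4706 and 3968 lines, and 4000 and 4666 with median-of-ratios scaling), among them Il6st at -0.77 ± 0.06. Its Jak1 difference (-0.25 ± 0.07, adjusted p = 0.00998 in limma) was lost without LCDM replicate 3 or 2iL-F replicate 5 (adjusted p = 0.0511 and 0.0562). LCDM against 2iL called 4 (62.3%, with 34.3% higher and 28.0% lower), with Il6st and Osmr higher in LCDM and Stat3 and Mras lower.

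The genes whose log2(TPM + 1) was most like that of each member over the 10 libraries, by Pearson's r, are a description, since libraries of a condition share their culture and only 5 conditions exist. For Osmr, 132 of 5977 genes compared had r above 0.95, led by the collagen receptor gene Ddr2 (0.997), Cyp1b1 (0.996) and Antxr1 (0.995), all below 0.4 TPM in 2iL and above 9 TPM in SL, A2iL and 2iL-F. For Il6st they were Ptx3 (0.996), which encodes a secreted pentraxin, Efemp1 (0.993), an extracellular matrix gene, and Lama4 (0.990), a laminin chain gene. Ptx3 had 133 TPM in 2iL-F, 104 in A2iL, 21.3 in SL, 5.31 in LCDM and 0.0307 in 2iL.

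For Lif 8 genes had r above 0.95, led by Zdhhc20 (0.962), Oaf (0.961) and Extl2 (0.960). Stat3 also had 8 such genes, Il6st 29, Mras 34 and Jak1 63. Oaf had 87.5 TPM in SL and 70.96 in A2iL against 14.4 to 20.3 in the other 3 conditions. Mras was matched by Calcoco2 (0.995), an autophagy receptor gene, by Mcm5 (0.994), which encodes a subunit of the replicative helicase, and by Myo10 (0.992). Calcoco2 had 123 TPM in 2iL and 166 in 2iL-F against 2.59 in A2iL. Pearson's r does not weigh the size of a change: Mcm5 ran only from 210 TPM in A2iL to 271 in 2iL-F, and Myo10 from 57.9 to 109. Jak1 was matched by Ccng1 (0.991), a p53 target gene, Nek7 (0.987) and Pop1 (0.985), and Stat3 by the lysosomal genes Lamp1 (0.987) and Litaf (0.980) and by Pla1a (0.973). Lamp1 had 364 TPM in 2iL and 188 in LCDM, the same extremes as Stat3.

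Of other genes of the pathway, those in the same upper part of the table are described by fixed lists and the same fit. Their counts are to be read against the shares of all lines called from SL, which were 77.7% in 2iL, 65.9% in LCDM, 65.4% in 2iL-F and 53.8% in A2iL, and with so few genes a list no count is a result about its list. Among 4 cytokine genes of the IL-6 family, 0 rose and 3 fell in 2iL, with 1 and 3 in LCDM, 1 and 2 in A2iL, and 0 and 2 in 2iL-F. Il11, another cytokine that signals through gp130, fell from 9.24 TPM in SL to between 0.247 and 1.28 TPM in the serum-free media. Il6, a cytokine that fibroblasts secrete, was instead at 5.07 TPM in SL, at 9.39 in A2iL and at 6.31 in 2iL-F, against 0.371 in LCDM and 0.0181 in 2iL, the order of Osmr rather than of Lif at its low end.

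Of 3 further receptor genes, Cntfr, the ciliary neurotrophic factor receptor, had 40.8 TPM in SL and fell in all 4 media, with differences of -4.28 ± 0.09 in 2iL, -3.10 ± 0.09 in 2iL-F, -2.94 ± 0.09 in A2iL and -1.36 ± 0.09 in LCDM. Il6ra, the IL-6 receptor chain, rose in 2iL (0.52), A2iL (0.90) and 2iL-F (1.43 ± 0.09, from 1.47 to 5.67 TPM). Il27ra rose in 2iL by 0.94 ± 0.14. The values thus ran in both directions.

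Of 7 other JAK and STAT genes, 4 rose and 2 fell in 2iL, 2 and 1 in A2iL, 4 and 2 in LCDM, and 3 and 1 in 2iL-F (all lines 77.7%, 53.8%, 65.9% and 65.4% called). Jak3, a kinase best known from cytokine receptors of lymphocytes, rose in all 4 media, from 8.12 ± 0.479 TPM in SL (SD, n = 2) to 82.3 in 2iL, 65.5 in 2iL-F, 31.8 in LCDM and 31.7 in A2iL. In 2iL this was a difference of 3.19 ± 0.06 (adjusted p = 3.96e-10 in limma), and in all 4 media the mean TPM of Jak3 was above that of Jak1. Tyk2, another kinase of the family, rose by 1.10 ± 0.09 in 2iL, 0.80 ± 0.09 in LCDM and 0.51 ± 0.09 in 2iL-F. Jak2 fell in LCDM by 1.10 ± 0.10.

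Among 9 inhibitors of JAK-STAT signalling, 4 rose and 2 fell in 2iL, 3 and 2 in A2iL, 6 and 2 in LCDM, and 4 and 3 in 2iL-F (all lines 77.7%, 53.8%, 65.9% and 65.4% called). Ptpn6, the phosphatase SHP-1, rose in all 4 media, by 1.35 ± 0.12 in 2iL, 1.33 ± 0.12 in LCDM, 1.30 ± 0.12 in A2iL and 1.03 ± 0.12 in 2iL-F. Ptpn1, the phosphatase PTP1B, fell in all 4, most in 2iL (-1.15 ± 0.06). Pias4, a SUMO ligase of the PIAS family, rose by 0.77 ± 0.05 in 2iL and by 0.58 ± 0.05 in LCDM, and Pias2 by 0.70 ± 0.06 in LCDM, with a small decrease in 2iL (-0.18 ± 0.06). The best known LIF feedback gene, Socs3, lies in the lower part of the table and was not analysed here, and neither was the LIF receptor gene Lifr.

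In the Ras and PI3K branch, where Mras acts, 7 of 20 tested genes rose and 6 fell in 2iL, 1 and 8 in A2iL, 6 and 5 in LCDM, and 5 and 7 in 2iL-F, with medians between -0.10 and 0.10 (all lines 77.7%, 53.8%, 65.9% and 65.4% called). Akt1, a kinase below PI3K, fell in all 4 media (2iL -1.35 ± 0.05, LCDM -0.95 ± 0.05, A2iL -0.74 ± 0.05, 2iL-F -0.71 ± 0.05). Hras fell in all 4 as well, by values from -0.74 in 2iL to -0.31 in LCDM.

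**Figure D4:**
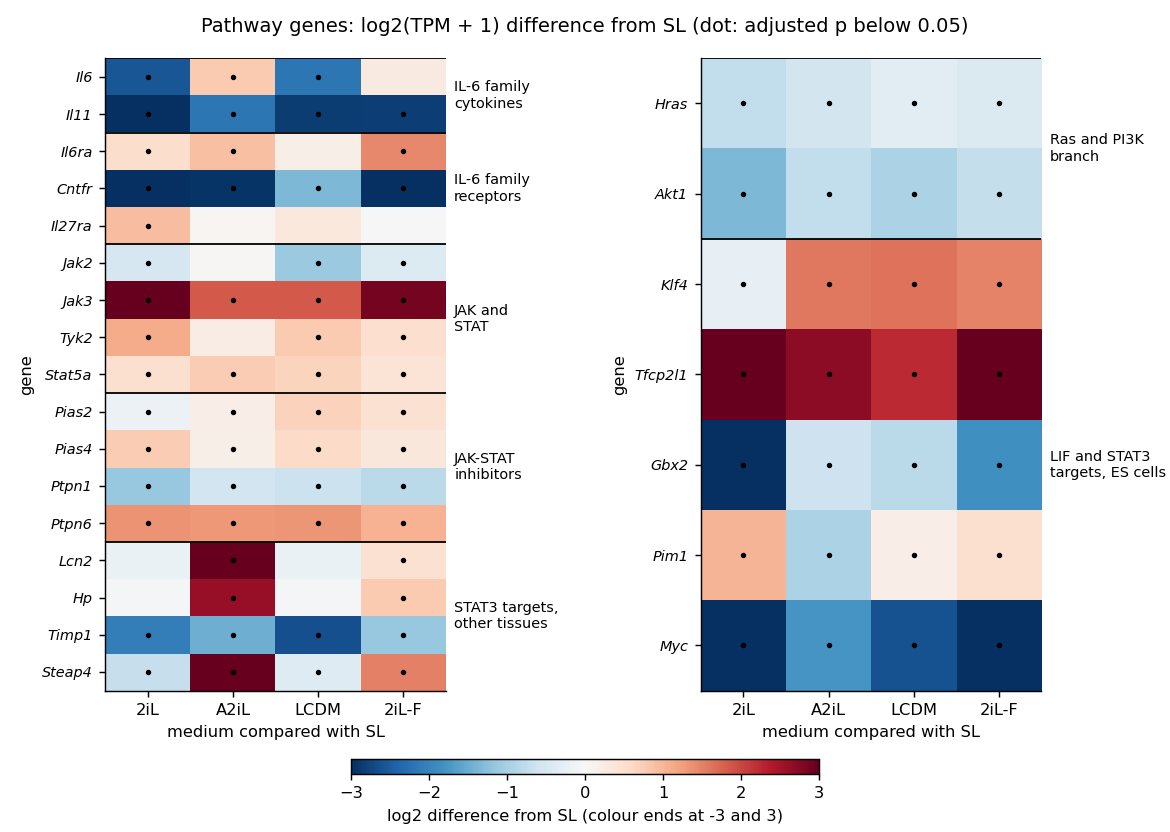
Difference from SL in log2(TPM + 1) (colour, ending at -3 and 3) for the other pathway genes that are described with values (rows) in the 4 serum-free media (columns), with a dot where the adjusted p was below 0.05. Klf5 and Pim3 are not drawn. Jak3 and Ptpn6 rose in every medium, Cntfr and Ptpn1 fell in every medium, and Lcn2, Hp and Steap4 stood out in A2iL.

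Genes reported as LIF or STAT3 targets in embryonic stem cells did not move together. Of 7 tested, 4 rose and 3 fell in 2iL and in A2iL, and 5 rose and 2 fell in LCDM and in 2iL-F, where 77.7%, 53.8%, 65.9% and 65.4% of all lines were called. Tfcp2l1, a naive pluripotency factor, rose in all 4 media, by 2.24 ± 0.07 in LCDM to 3.50 ± 0.07 in 2iL. Klf5 rose in all 4 as well, by 0.82 ± 0.05 in A2iL to 1.40 ± 0.05 in 2iL. So did Pim3, by 0.53 ± 0.07 in 2iL-F to 1.00 ± 0.07 in 2iL. Klf4 rose by 1.62 ± 0.05 in LCDM, 1.59 ± 0.05 in A2iL and 1.48 ± 0.05 in 2iL-F but fell by 0.25 ± 0.05 in 2iL, and was 1.73 ± 0.05 higher in 2iL-F than in 2iL. Pim1, a kinase gene, rose in 2iL (1.03 ± 0.06) and fell in A2iL (-0.94 ± 0.06). Gbx2 fell in all 4, from 93.8 TPM in SL to 10.8 in 2iL, and Myc fell from 68.6 TPM in SL to 19.5 in A2iL, 10.3 in LCDM, 7.64 in 2iL-F and 0.264 in 2iL.

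Of 9 STAT3 targets known from other tissues, 5 rose and 3 fell in A2iL (all lines 21.9% higher and 31.9% lower), 5 and 2 in 2iL-F (28.1% and 37.3%), 2 and 4 in 2iL (36.7% and 40.9%), and 1 and 4 in LCDM (32.2% and 33.7%). Their median difference from SL was 0.39 in both A2iL and 2iL-F, and between these conditions 3 were higher and 3 lower in A2iL. Steap4, a metalloreductase, Lcn2, an iron-binding lipocalin, and Hp, haptoglobin, had 37.5, 11.8 and 5.64 TPM in A2iL. In 2iL-F they had 3.65, 0.588 and 0.856, and in SL, 2iL and LCDM no mean reached 0.7 (all these values are means). Their difference between A2iL and 2iL-F was 3.05 ± 0.08, 3.01 ± 0.10 and 1.85 ± 0.16. Timp1, a protease inhibitor that fibroblasts make, fell in all 4 media, from 533 TPM in SL to between 85.5 and 241.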

How the data were processed

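RNA-seq was deposited by the authors as 1 table of TPM, with 10 libraries in columns and 20494 lines. Per the submitters' processing notes, Bowtie2, RSEM, DESeq2, R 3.4.2 and the build mm10 were used; the sources used here give no other version. The depth per library is unknown. The listed values summed to 71% to 73% of the full TPM scale, and the 2 libraries of a condition had 97.5% to 98.0% of lines at 1 TPM or more within 1.5-fold. Symbols were checked with gene families. In the upper part of the table, which ends below Lif and Mras, 98.3% of 286 broadly expressed and 6.73% of 104 restricted members reached 5 TPM (area under the curve 0.99, and 0.985 in the lines around Lif and Mras). Further down the area was 0.592 on the symbol's own line and 0.947 on the next, so no gene is named there.

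Log2(TPM + 1) was fitted with limma 3.58.1 in R 4.3.3 (eBayes with trend, a mean per condition, all 10 libraries, no covariate), on 14578 lines, 7962 of them nameable, with 5 residual degrees of freedom. There were 10 pairwise comparisons and an F test, two-sided, adjusted by Benjamini-Hochberg within each. The fit was first tested on simulated data with known changes in 200 of 14578 lines, far fewer than were called here. It recovered 56% of log2 changes of 0.5 and 91.3% of those of 1, with 5.16% of calls false. Because the adjustment is stricter when few lines change, these rates need not hold for the real comparisons. Differences that did not pass may still be real where small. The members and gene lists were chosen with earlier results of these data known. Other pathway genes were named at up to 4 per list and comparison, by size among those that passed. For likeness, the 3 genes with the highest r and a mean of at least 5 TPM were named, leaving out predicted genes. Coordinates are those of GENCODE M21. Figures were drawn with matplotlib 3.10.9 and tables made with pandas 2.3.3 under Python 3.11.15. Some genes are not reported here. Alternatives were another pseudocount, filters, scalings, fits on fewer lines or libraries, robust eBayes, a replicate term and each library left out.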

Additional observations from a re-analysis of the deposited data

How the results depend on the processing

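Of 60 differences (6 genes in 10 comparisons), 48 kept their direction and their side of the threshold under every alternative run, and 12 did not, 55 of 1158 recomputed values being weaker, 3 stronger and 6 reversed. The counts of members called per comparison stayed within 1.5 times under each. The reversed values all belong to differences that did not pass: Jak1 in LCDM against 2iL was -0.0205 with median-of-ratios scaling and -0.0594 without 2iL replicate 3 (highest over left-out libraries 0.115), Il6st in A2iL against 2iL-F was 0.00844 with quantile normalisation, Stat3 in A2iL against 2iL-F ranged from -0.0140 to 0.0342 over left-out libraries, and Lif in 2iL-F against 2iL from -0.0117 to 0.280. When a library is left out, the single one of its condition is assumed to vary like the others. Calls that single libraries ended are named beside their results. With the replicate block, 58 of 60 differences kept their side, while Stat3 in LCDM against SL (adjusted p = 0.063) and Osmr in A2iL against 2iL-F (adjusted p = 0.0629) no longer passed. Over all lines the calls in A2iL against SL went from 7844 to 7618. The numbers 3 and 5 are not explained in the labels, and the correlations of same-numbered deviations between conditions ran from -0.131 to 0.0746, with 0 of 10 above 0.1, so no pairing is read from them. Leaving out 2iL and 2iL-F entirely, a fit chosen after seeing the data, the 18 differences among SL, A2iL and LCDM all kept their side, and list counts moved by at most 2 genes. TPM hold no depth, so what depth limits cannot be given.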
